A study of Rattus norvegicus with 32 samples.

Results

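The cytosolic ribosomal protein genes were examined in rat brainstem and hypothalamus after ozone inhalation, with and without the adrenal glands. Members were all genes whose symbol names a protein of the large subunit (Rpl followed by a number, or Rplp0 to Rplp2) or of the small subunit (Rps followed by a number, or Rpsa), with a mean normalized count of 10 or more in either tissue. This gave 64 of the 22587 genes in the table, 39 of the large and 25 of the small subunit. The symbol alone was matched by 71 genes, and 7 of these were under the mean of 10 in both tissues.

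The study used Wistar Kyoto rats, an inbred strain, at 13 weeks of age. They had either a sham operation or adrenalectomy (ADREX, removal of both adrenal glands and so of the main source of circulating corticosterone and adrenaline). They then inhaled filtered air or 0.8 ppm ozone for 4 hours, and both tissues were frozen directly afterwards. This gave 8 groups (brainstem or hypothalamus, sham or ADREX, air or ozone) of 4 libraries each, 32 in all, and all groups share the strain, the age and the surgery as such. The sources used here do not say that the 4 libraries of a group came from separate animals, so a p-value here reflects variation among the libraries as labelled, which may be technical.

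The ribosome carries out protein synthesis with a small subunit that decodes the mRNA and a large subunit that joins the amino acids. Each subunit is built on rRNA and needs nearly every one of its proteins in equal number, so that ribosomal protein genes are usually transcribed together in all cell types. Their mRNAs begin with a run of pyrimidines directly at the cap, the 5′ terminal oligopyrimidine tract, through which the kinase mTORC1 sets how much of them is translated. Control of that kind acts on translation and is not read by a count of mRNA.

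A pyrimidine run near the annotated start was found in most members that had a promoter window. Whether it lies directly at the cap was not measured, since runs that opened before or after the annotated start were counted. RefSeq promoter windows of build GRCr8 (250 bases before to 50 bases after the annotated start) were matched by symbol for 51 of the 64 members. Stretches of 30 bases around the start are given below, 15 on each side, 5′ to 3′ on the gene's strand, for members that carry the results further down, with capitals for the pyrimidine run.
Rpl4, chr8:73566462-73566491, plus strand: taagttCTTCCTTTTCCTgtgggagcagcc
Rplp0, chr12:46718376-46718405, minus strand: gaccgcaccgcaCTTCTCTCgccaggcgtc
Rpl12, chr3:36661925-36661954, plus strand: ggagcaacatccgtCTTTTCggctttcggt
Rpl37a, chr9:81748076-81748105, plus strand: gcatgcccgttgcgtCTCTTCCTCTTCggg
Rps18, chr20:4933730-4933759, plus strand: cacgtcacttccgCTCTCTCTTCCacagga
Rps24, chr16:96502-96531, plus strand: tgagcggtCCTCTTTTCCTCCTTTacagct
Rps27l, chr8:76443643-76443672, plus strand: gtttattcatttgtcattatttgtggtgtc
Rpl11, chr5:153560788-153560817, minus strand: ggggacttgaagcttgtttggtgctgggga
In these windows the run of Rps24 was 16 bases long and that of Rplp0 8 bases, while Rps27l and Rpl11 had none. A run was counted where a C within 10 bases of the annotated start opened at least 5 pyrimidines in a row on the gene's own strand. It was found in 38 of the 51 members (74.5%) and in 28.9% of 33469 promoter windows, and runs of 8 or more were found in 30 members (58.8%) against 7.34% of windows. The letters CCGGAAG, a core of ETS-family binding motifs, lay on either strand anywhere in the window of 16 members (31.4%) and of 8.75% of all windows. The letters TATAAA, likewise on either strand, lay in 6 members (11.8%) and in 14.2% of all windows. These matches describe the annotated windows and do not show a site in use.

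The libraries held 6.44 to 12.4 M reads (M for mega) assigned to genes. The tissue labels fitted their markers: the summed normalized count of 7 hindbrain genes was 4098 to 5288 in brainstem and 37.5 to 158 in hypothalamus libraries, and that of 9 hypothalamic genes was 19.3 to 125 and 3257 to 5018. Summed liver transcripts, which neither tissue is known for, passed 2000 RPM (a share of the reads) in 4 libraries: 1 of brainstem (number 18 of sham ozone) and 3 of hypothalamus (number 2 of sham air, number 18 of sham ozone and number 68 of ADREX air). Brainstem ADREX ozone 81 also stood apart: its counts over all genes differed from those of its group mates by a chi-square per degree of freedom of 64.5 to 71.7, where other pairs of one group had 2.78 to 31.6. It had the lowest oligodendrocyte marker sum of the brainstem libraries. Its summed counts of translation factors and other pyrimidine-start mRNAs (59110) and of ribosome biogenesis genes (18772) were the highest in brainstem. Values without these libraries are given for many of the medians and named genes below. In whole tissue, fewer cells of a type and less RNA per cell cannot be told apart.

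All values are normalized counts, reads divided by a library's size factor, and are not corrected for transcript length, so they do not rank one gene's mRNA against another's. Over 32 libraries the mean was 1000 or more for 6 members, 100 to 1000 for 37 and under 100 for 21, with a median of 212. Rpl4, whose protein lines the exit tunnel of the large subunit, had the highest mean (2800.0, from 2362 to 3491), followed by Rpl3 at the peptidyl transferase centre (2297) and Rpl5 (1931). Among the lowest members were Rpl37 (18.1) and Rps29 (15.9). Together the members held 0.321% ± 0.039 of the normalized count in brainstem and 0.333% ± 0.054 in hypothalamus (SD, n = 16 each). The lowest library had 0.229% and the highest 0.449%. This sum leaves out rows named as copies of these genes, such as Rps27a-ps1 (mean 1539) and Rps2-ps6 (1535). It is therefore not the share of all ribosomal protein mRNA.

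**Figure D1:**
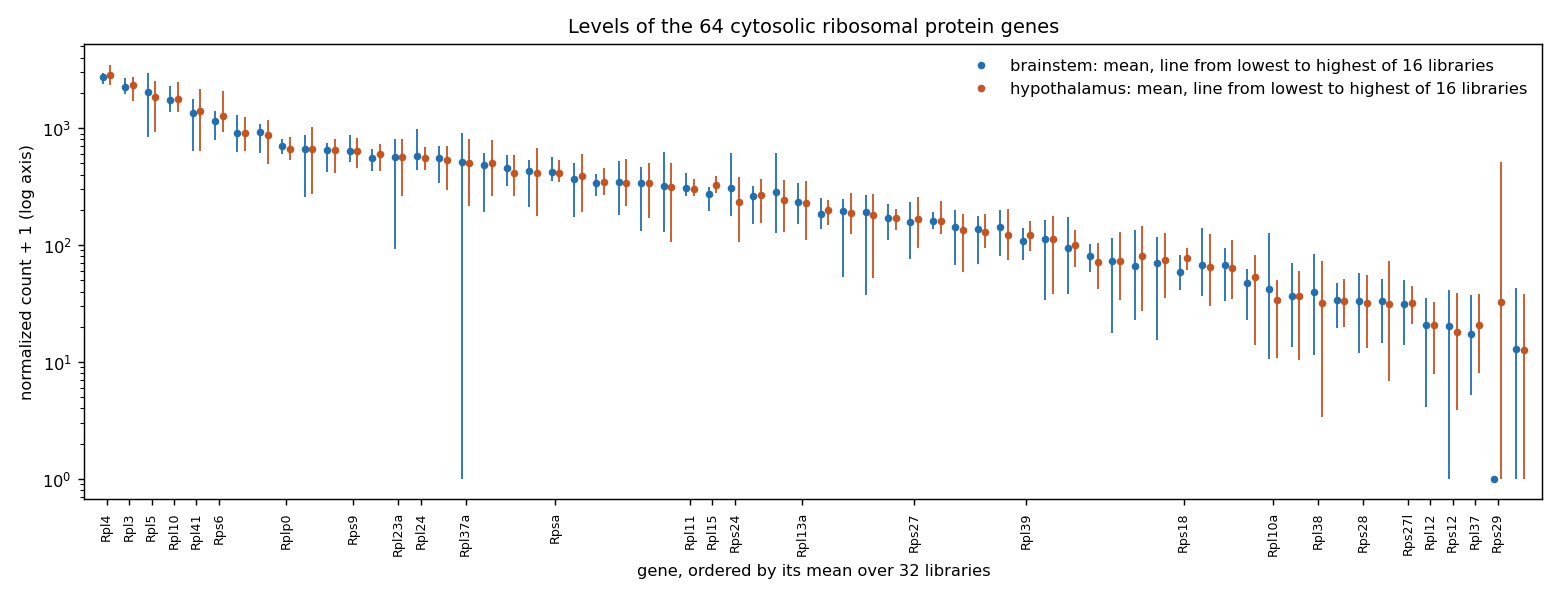
Normalized count plus 1 on a log axis for each of the 64 genes, as the mean of 16 libraries per tissue with a line from the lowest to the highest library; only some of the genes are labelled. The means of both tissues lie close together for most genes, and Rpl37a and Rps29 have the longest lines in the plot, since each has a library that departs from all others.

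Among genes picked for their role, the stalk base protein gene Rplp0 had 698 ± 65 in brainstem and 661 ± 75 in hypothalamus (SD, n = 16 each). Rpsa, a small subunit protein first named as a laminin receptor, had 423 ± 58 and 413 ± 62. Rps6, the S6 kinase substrate, had 1153 ± 173 and 1263 ± 298. Rpl5 and Rpl11, which bind the 5S rRNA and in free form restrain Mdm2, had overall means of 1931 and 304. Rpl13a had an overall mean of 232, Rpl10 one of 1767, Rpl41, which encodes one of the shortest known proteins, one of 1386, and Rps27 one of 160.0.

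Of the 7 matching genes under the mean of 10, Rpl7a was listed at 0 in all 32 libraries. Rps4x (5.8), Rps10 (6.0) and Rplp2 (7.6) encode core proteins that cells generally need. Rpl3l (0.57), Rpl39l (0.76) and Rpl10l (2.8) are copies known mainly from muscle or testis. Near the threshold, Rps29 (15.9) lay inside and Rplp2 (7.6) outside it. Rpl8, Rpl13, Rpl22, Rpl36a, Rplp1, Rps19, Rps20, Rps21, Rps26 and Rps27a had no row under these symbols in the table, so they were not analysed here.

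The ribosomal protein genes moved up and down together from library to library. For each library the deviation of each member from its group's mean was taken on log2(value + 1), and the median over members was read. This median ran from -0.56 in brainstem sham air 3, where 50 members were below and 13 above their group mean, to 0.37 in hypothalamus ADREX air 66, where 60 were above and 3 below. Other low libraries were hypothalamus ADREX ozone 84 (-0.40) and hypothalamus sham ozone 18 (-0.39). In these 3 low libraries 50 of 63, 48 of 64 and 52 of 64 members were below their group mean.

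The median deviation of 2 other lists followed that of the members across the 32 libraries. With nuclear-encoded respiratory chain genes, which build the mitochondrial electron transport complexes, Pearson's r was 0.949 (Spearman's rho 0.930; r 0.955 in brainstem and 0.965 in hypothalamus; r 0.933 without the 2 libraries of most extreme member values). With mitochondrial ribosomal protein genes, whose proteins form a separate ribosome inside mitochondria, r was 0.91 (0.83 in brainstem, 0.98 in hypothalamus). With translation factors and other mRNAs known to have a pyrimidine start it was 0.62 (0.37 and 0.82), and with ribosome biogenesis genes 0.33 (0.21 and 0.67). In brainstem ADREX ozone 81 these lists deviated by 0.13 and 0.29, against -0.0023 for the members, and no correlation without that library is given. With liver genes r was -0.51 (-0.32 and -0.66), with neuron markers 0.066 (-0.21 and 0.40) and with the log2 of the total reads 0.077 (0.015 and 0.18). These correlations describe libraries that share one normalization and are given with no p-value; whether RNA quality or another property of the libraries moved with them was not tested.

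**Figure D2:**
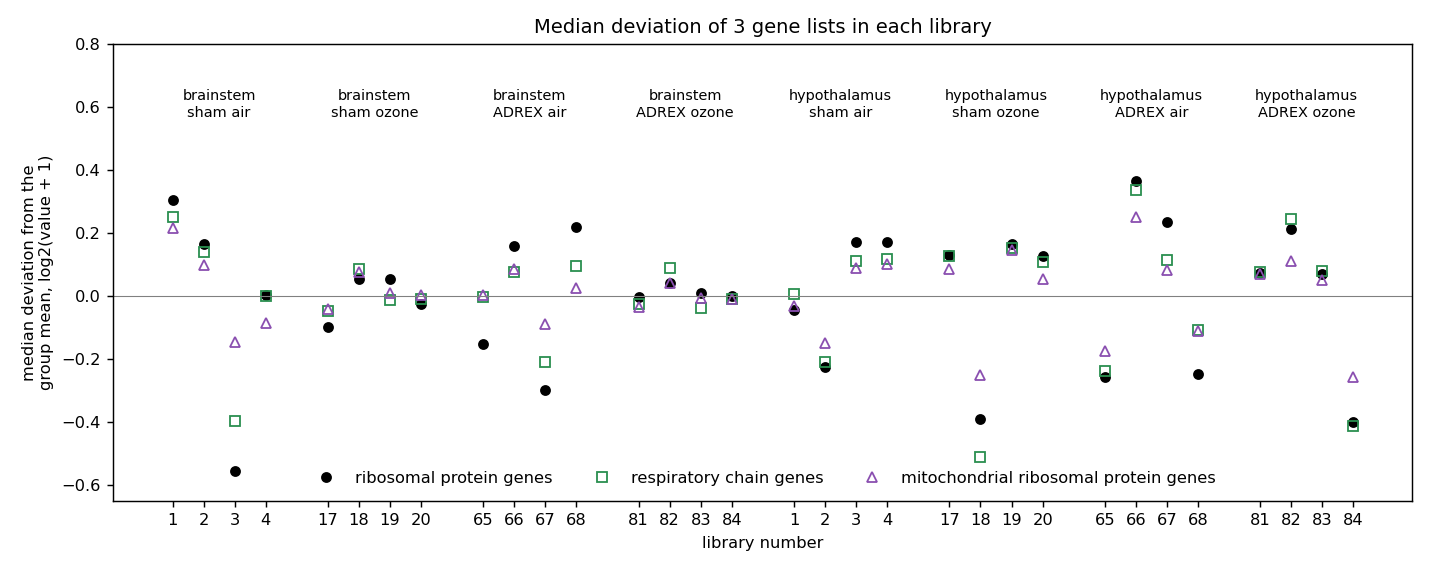
Median deviation from the group mean, on log2(value + 1), of the ribosomal protein genes (black circles), respiratory chain genes (green squares) and mitochondrial ribosomal protein genes (purple triangles) in each of the 32 libraries. The 3 markers lie low together in brainstem sham air 3 and, in hypothalamus, in sham ozone 18 and ADREX ozone 84.

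Single members followed the others to differing degrees. The correlation of a member's deviation with the median of the other members was positive for 56 of 64, above 0.5 for 37, and had a median of 0.66. Rpl41 (0.95) and Rpl18 (0.94) were among those closest to the rest. Rps6 (-0.36), Rps25 (-0.31), Rpl39 (-0.27), Rps18 (-0.24) and Rpl11 (-0.15) ran against it, as did Rps29 (-0.37), which had reads in a single library.

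The members also varied more between libraries of one group than other genes. Their within-group SD on log2(value + 1) had a median of 0.43, against 0.24 for the 14469 other genes tested. Over the range of means that held the middle 32 members (69.9 to 516), the medians were 0.43 and 0.22 (6832 genes). Rpl4 (0.11), Rpl3 (0.15) and Rplp0 (0.15) varied least, and Rpl37a (1.70) and Rps29 (1.59) were among those that varied most.

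Rpl37a and Rps29, both zinc-binding proteins, each had a library unlike all others. Rpl37a was at 0 in brainstem ADREX ozone 84, where a count of 0 allows up to 3 reads, and at 216 to 899 in the other 31 libraries. Rps29 was at 509 (434 reads) in hypothalamus ADREX ozone 84 and at 0 in the other 31. In the whole table, 2 genes were at 0 in 1 library and above 50 in the rest (Rpl37a and Apeg3), and 3 were above 100 in 1 library and at 0 in the rest (Rps29, Gng5 and Polr2m). Rps29 met the mean of 10 through that single library, so it entered the hypothalamus comparisons and not those of the brainstem, which tested 63 members.

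**Figure D3:**
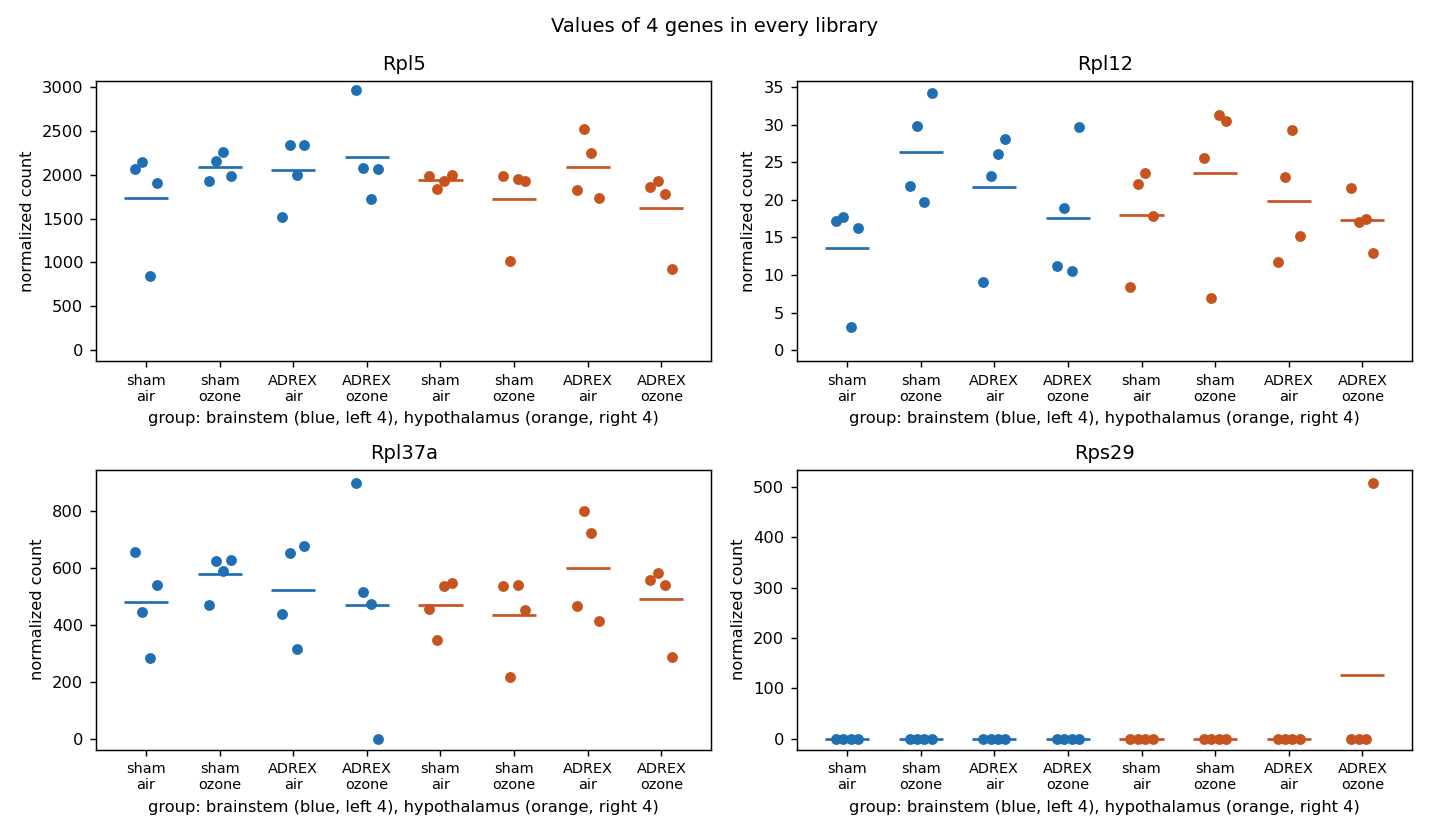
Normalized counts of Rpl5, Rpl12, Rpl37a and Rps29 in every library (points) with the group mean (line), brainstem in blue and hypothalamus in orange. Rpl5 is low in the same 3 libraries as the members' median, Rpl37a is at 0 in 1 library and Rps29 is above 0 in 1 library only.

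The first question was whether ozone changed these genes in rats with adrenal glands. In sham brainstem, limma called none of the 63 members at an adjusted p under 0.05, with 141 of 14408 genes called (0.979%). Only Rpl12 had an unadjusted p under 0.05, and edgeR and DESeq2 on reads recovered from the table also called 0 members, each with 1 such p. The log2 difference (ozone minus air) was positive in 50 of 63 members with a median of 0.20, where 49.3% of all genes were positive and their median was -0.0026. Without brainstem sham air 3, 38 were positive and the median was 0.033, and over all libraries left out in turn it reached 0.29 (without sham air 2).

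Rpl12, part of the base of the stalk that recruits elongation factors, showed how one library acts. Its normalized counts were 17.2, 17.7, 3.1 and 16.2 in sham air and 21.8, 29.7, 19.7 and 34.2 in sham ozone. All 4 ozone libraries were above all 4 air libraries, and the third air library, number 3, lay far below the rest. The log2 difference was 1.10 ± 0.48 (SE), with a limma adjusted p of 0.571. Rpl12 was the single member whose 2 groups did not overlap, where 7.14% of all genes did not. Among the 5 largest positive differences were those of Rps12, Rpl12, Rpl38 and Rps2 (1.40 to 0.55), and the 5 most negative those of Rps25, Rpl39, Rpl10a, Rpl23a and Rpl31 (-0.35 to -0.11), and none passed. Rps12, with an overall mean of 18.2, was at 0 in 1 brainstem library. Its brainstem differences, here and below, are not given without that library.

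In sham hypothalamus, 0 of 64 members were called by limma, with 230 of 14483 genes called (1.59%). An unadjusted p under 0.05 was found for Rpl11 and Rps23 by limma and for 1 member each by edgeR and DESeq2, which called 0. The differences were positive in 24 and negative in 39 members, with a median of -0.052. The median was 0.10 (50 positive) without sham ozone 18, -0.17 (20 positive) without sham air 2, the other liver-rich library of these groups, and -0.0091 (28 positive) without all liver-rich libraries.

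Rpl11 was nearest to passing there. Its normalized counts were 262, 272, 278 and 266 in sham air and 348, 301, 305 and 311 in sham ozone. The highest air library was under the lowest ozone library, and the log2 difference was 0.23 ± 0.085 (SE), with a limma adjusted p of 0.248. Besides Rpl11, Rpl24, a protein at the contact between subunits, did not overlap between the groups, where 9.61% of all genes did not. Its counts were 437, 486, 497 and 508 in air and 555, 511, 540.3 and 547 in ozone, and its log2 difference was 0.16 ± 0.092 (SE; limma adjusted p = 0.50). Among the largest positive differences were those of Rps12, Rps28, Rps25 and Rps6 (0.56 to 0.28), and the most negative those of Rpl6, Rps15a, Rpl35a, Rps23 and Rps2 (-0.83 to -0.52), and none passed.

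In the same sham libraries the p53 target and cell cycle inhibitor Cdkn1a rose with ozone by 2.82 ± 0.21 in brainstem and 1.92 ± 0.16 in hypothalamus on the log2 scale (SE; limma adjusted p = 4.9e-07 and 2.4e-06). In ADREX rats it had 111 ± 17 in air and 97.6 ± 29 in ozone in brainstem, and 224 ± 46 and 195 ± 42 in hypothalamus (SD, n = 4 each). Of the other 5 p53 targets listed beside it (Mdm2, Ccng1, Sesn1, Bax and Phlda3), none was called for ozone in sham brainstem, and Sesn1 was called in sham hypothalamus. In sham brainstem, air and ozone, Bax had 51.7 ± 13 and 45.9 ± 8.4, Mdm2 322 ± 45 and 372 ± 30, and Phlda3 396 ± 62 and 389 ± 22. Ccng1 (1135 to 1358 in air, 1521 to 1723 in ozone) and Sesn1 (500 to 530, 589 to 868) were higher in ozone there with no overlap. Both also did not overlap in sham hypothalamus, Ccng1 with 1610 to 1951 in air and 2095 to 2257 in ozone. Mdm2, Bax and Phlda3 overlapped in both tissues. Of all genes, 7.14% did not overlap in sham brainstem and 9.61% in sham hypothalamus. Rps27l, a copy of Rps27 that is known as a p53 target, had 32.2 ± 4.5 in air and 31.1 ± 3.8 in ozone in sham brainstem, and 29.4 ± 3.1 and 25.7 ± 5.0 in sham hypothalamus (SD, n = 4 each). Its log2 differences were -0.044 ± 0.30 and -0.20 ± 0.19 (SE), and limma did not call it (adjusted p = 0.999 and 0.698).

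After adrenalectomy, limma called no gene for ozone in either tissue: 0 of 14408 (0%) in brainstem and 0 of 14483 (0%) in hypothalamus, with 0 members by limma, edgeR or DESeq2. DESeq2 called 1 gene, not a member, in brainstem. In brainstem 1 member by limma and edgeR and 2 by DESeq2 had an unadjusted p under 0.05, by limma Rpl10a of the mobile L1 stalk. Its normalized counts were 125, 56.3, 38.6 and 49.8 in air and 27.4, 43.7, 28.05 and 9.6 in ozone. The groups overlapped, and the log2 difference was -1.31 ± 0.51 (SE; limma adjusted p = 0.801). The members' differences were positive in 33 and negative in 30, with a median of 0.030. Leaving out each brainstem library in turn, number 81 included, gave -0.050 (without ADREX air 65) to 0.089 (without ADREX air 68). With sample weights the median was -0.027 (24 positive). Rpl4 and no other member did not overlap between the groups, where 2.17% of genes did not, with 2386, 2850.2, 2595 and 2789.9 in air and 2894, 2903, 2936 and 2881 in ozone (log2 difference 0.13 ± 0.081; limma adjusted p = 0.801). The 5 most negative differences were those of Rpl37a, Rpl10a, Rpl23a, Rpl31 and Rpl27 (-2.03 to -0.42), and among the most positive were those of Rps2, Rps15, Rps16 and Rps28 (0.72 to 0.49). That of Rpl37a rests on the library at 0 and was 0.27 without it. Without library 81 the difference was -0.11 for Rpl23a, -0.32 for Rpl31, 0.17 for Rpl27, 0.24 for Rps16 and 0.25 for Rps28.

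In ADREX hypothalamus the differences were negative in 46 of 64 members, with a median of -0.16. Leaving out 1 library gave -0.044 (38 negative, without ADREX ozone 84) to -0.26 (52 negative, without ADREX air 65), and -0.060 without ADREX air 66. Without the liver-rich libraries it was -0.23 (52 negative). The respiratory chain genes had 59 of 71 negative there and a median of -0.17. An unadjusted p under 0.05 was found for Rpl23a, Rps23, Rpl36 and Rpl3 by limma, for 5 members by edgeR and for 6 by DESeq2.

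Rpl23a, on the rim of the exit tunnel, had 434, 711, 524 and 638 in ADREX air and 386, 483, 435 and 261 in ADREX ozone. The groups overlapped, with the lowest ozone library below all air libraries, and the log2 difference was -0.57 ± 0.22 (SE; limma adjusted p = 0.586). Rpl27 and Rps2 were lower with no overlap, where 3.63% of all genes did not overlap. The most negative differences were those of Rpl38, Rps15a, Rps2, Rpl27 and Rps23 (-0.92 to -0.65), and among the most positive were those of Rps29, Rpl36, Rps28 and Rps9 (2.25 to 0.24). That of Rps29 rests on the single library with reads.

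Adrenalectomy alone, compared in air, called 0 of 14408 genes (0%) in brainstem and 2 of 14483 (0.0138%) in hypothalamus, with no member among them by limma, edgeR or DESeq2. In brainstem, 48 of 63 members were positive (ADREX minus sham) with a median of 0.12, and no member had an unadjusted p under 0.05 by any of the 3 tools. Without sham air 3 the count was 25 and the median -0.040, and without ADREX air 67 they were 51 and 0.22. No member's groups failed to overlap there, where 3.29% of genes did. The largest differences were those of Rpl10a, Rps12, Rpl12, Rpl38 and Rps23 (0.91 to 0.40) and of Rpl37, Rps25, Rps28, Rpl14 and Rps27l (-0.90 to -0.27).

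In hypothalamus, 46 members were positive with a median of 0.10. It was 0 without ADREX air 66 (31 positive), 0.21 without ADREX air 65 (55 positive) and 0.067 without the liver-rich libraries (43 positive). Unadjusted p-values under 0.05 were found for 5 members by limma, among them Rpl24, Rpl11, Rps28 and Rps9, for 6 members by edgeR and for 8 by DESeq2. Rpl24 had 437, 486, 497 and 508 in sham air and 593, 683, 641 and 486 in ADREX air. A single ADREX library, number 68, lay within the sham range, and the log2 difference was 0.31 ± 0.092 (SE; limma adjusted p = 0.709). Rpl11 had 305, 365, 305 and 330.3 in ADREX air, all above its 4 sham air libraries, with a log2 difference of 0.27 ± 0.085 (SE; limma adjusted p = 0.758). Rps6 also did not overlap, where 5.1% of all genes did not, with 969, 1128, 923 and 1041 in sham air and 1309, 1375, 1151 and 1212 in ADREX air (0.31 ± 0.17; limma adjusted p = 0.915). Among the largest differences were those of Rps12, Rps28 and Rps7 (1.18 to 0.60) and of Rpl6, Rps15a, Rpl23a, Rps23 and Rpl10a (-0.51 to -0.27).

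Between ADREX and sham rats that both breathed ozone, limma called 352 of 14408 genes in brainstem (2.44%) and 325 of 14483 in hypothalamus (2.24%), again with 0 members. The 2 comparisons share their sham ozone libraries with the ozone comparisons above. In brainstem no member had an unadjusted p under 0.05 by any of the 3 tools, 27 of 63 were positive and the median was -0.076. It ran from -0.16 (without sham ozone 17) to -0.027 (without sham ozone 19) on leaving out 1 library, and was -0.043 without ADREX ozone 81 and -0.027 without the liver-rich library. Rpl4 and Rps15 were higher with no overlap, where 7.24% of all genes did not overlap. Among the largest differences were those of Rps15, Rps16, Rpl24 and Rpl35a (0.34 to 0.24) and of Rpl37a, Rpl37, Rpl38, Rpl12 and Rpl23a (-2.24 to -0.58). That of Rpl37a was 0.071 without the library at 0. Without ADREX ozone 81 that of Rpl23a was 0.083, that of Rpl24 0.052, that of Rpl38 -0.40 and that of Rps16 0.0079.

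In hypothalamus, 32 members were positive and 32 negative, with a median of 0.012. The median was -0.15 without sham ozone 18, the same without all liver-rich libraries, and 0.15 without ADREX ozone 84. Unadjusted p-values under 0.05 were found for 6 members by limma, among them Rps9, Rpl23a, Rps28, Rps27l and Rpl3, and for 8 members each by edgeR and DESeq2.

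Rps9, a small subunit protein that acts early in assembly, was nearest to passing, with 622, 662, 544 and 543 in sham ozone and 806, 717, 739 and 827 in ADREX ozone. All 4 ADREX libraries were above all 4 sham libraries, and the log2 difference was 0.38 ± 0.12 (SE; limma adjusted p = 0.145). Its adjusted p was 0.0164 with sample weights and 0.0322 without the liver-rich libraries, where the difference was 0.42 and 0.44. Rpl24 and Rps27l were also higher with no overlap, where 6.66% of genes did not overlap. Rps27l had 22.7, 29.4, 20.2 and 30.5 in sham ozone and 31.0, 33.2, 43.8 and 32.8 in ADREX ozone (0.45 ± 0.19; limma adjusted p = 0.351). Rpl23a had 502, 392, 738 and 764 in sham ozone, and its difference to the ADREX ozone libraries above was -0.59 ± 0.22 (limma adjusted p = 0.248). Limma called 3 members with sample weights, where 6.98% of all genes were called, 4 without the liver-rich libraries (Rpl23a, Rpl27 and Rps9 among them), where 4.1% were, and 1, Rpl23a, without sham ozone 18, where 4.03% were. Counts of this size in 64 members are near those shares. Those of Rps29, which rests on its single library with reads, Rps28 and Rpl36 (2.25 to 0.62) were among the largest differences, as were those of Rpl27, Rpl23a, Rpl10a, Rpl38 and Rps23 (-0.64 to -0.35).

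The interaction asked whether ozone acted differently after adrenalectomy. Limma called 29 of 14408 genes in brainstem (0.201%) and 20 of 14483 in hypothalamus (0.138%), and 0 members in either, as did edgeR and DESeq2. In brainstem 48 of 63 members were negative, with a median of -0.18. It was -0.020 without sham air 3, -0.31 without sham air 1 and -0.13 without ADREX ozone 81. No member had an unadjusted p under 0.05 by limma or edgeR, and 1 had by DESeq2. In hypothalamus 45 of 64 were negative, with a median of -0.095. It was 0.040 without ADREX ozone 84, -0.22 (52 negative) without sham ozone 18, -0.27 (52 negative) without the liver-rich libraries, and -0.15 (52 negative) by edgeR and by DESeq2. Rpl11 alone had an unadjusted p under 0.05 by limma, with an interaction of -0.35 ± 0.12 (SE; limma adjusted p = 0.626), and edgeR and DESeq2 each had 1 such member. The most negative values were those of Rpl37a, Rpl12, Rps12, Rpl10a and Rpl38 in brainstem (-2.35 to -1.10) and of Rps12, Rpl38, Rpl31, Rpl27 and Rpl12 in hypothalamus (-1.02 to -0.40). The most positive were those of Rps25, Rps28, Rpl39, Rps16 and Rpl24 (0.60 to 0.32) and of Rps29, Rpl6, Rpl36, Rpl35a and Rps27l (2.25 to 0.31). The value of Rps29 rests on its single library with reads, and that of Rpl37a on its library at 0, without which it was -0.044. Without brainstem ADREX ozone 81 those of Rps25, Rps28, Rps16 and Rpl24 were 0.37, 0.28, 0.12 and 0.12.

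**Figure D4:**
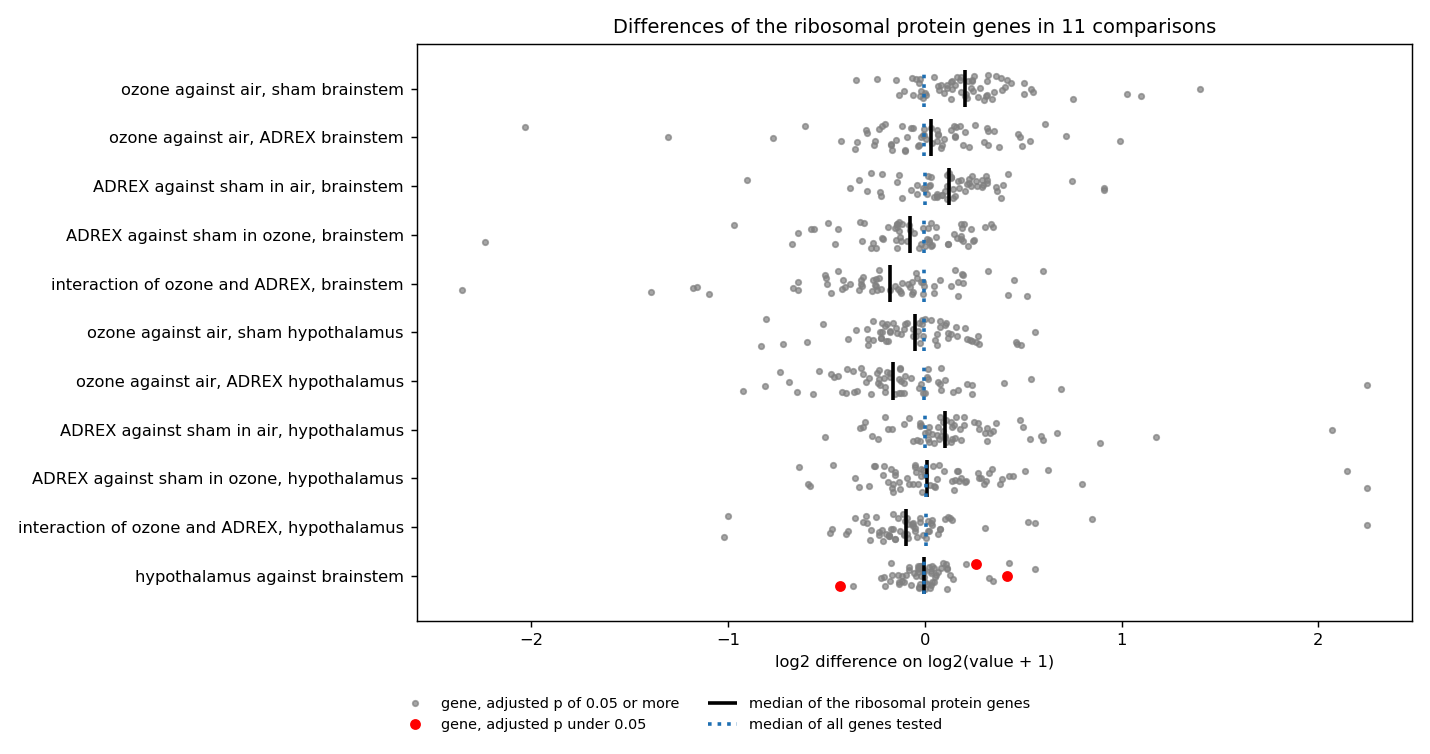
Log2 differences of the ribosomal protein genes (points, spread vertically at random for visibility) in the 11 comparisons, with their median (black line) and the median of all genes tested (dotted blue line). The 3 red points, genes with an adjusted p under 0.05, all lie in the comparison of hypothalamus with brainstem.

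Over the 10 comparisons within a tissue, leaving out 1 library changed the sign of the members' median, or brought it to 0, in 6. The standard errors set what could have been seen: the median SE of a member was 0.26 in the ozone and ADREX comparisons of either tissue, against 0.18 for other genes in brainstem and 0.15 in hypothalamus. For the sham ozone comparison the 95% interval of the log2 difference lay within 0.5 of zero for 17 of 63 members in brainstem and 18 of 64 in hypothalamus, and within 1 for 44 and 48. Rpl4, Rpl3, Rplp0 and Rpsa were among the more tightly measured, with log2 differences for ozone in sham brainstem of -0.023 ± 0.081, 0.069 ± 0.10, 0.14 ± 0.10 and -0.067 ± 0.14 (SE).

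Between the tissues the members differed less than other genes did. On the mean of the 4 differences between hypothalamus and brainstem within a group, limma called 3 of 64 members (4.69%), where 7850 of 14533 genes were called (54%), 27.1% higher and 26.9% lower. EdgeR and DESeq2 on recovered reads also called 3 each. The members' absolute log2 difference had a median of 0.074, against 0.24 for other genes, and 56 of 64 (87.5%) were under 0.25, against 52.0% of other genes. Their SE was larger, with a median of 0.14 against 0.085. Markers of other cell types also differed between the tissues: the summed normalized count of 7 oligodendrocyte genes was 275795 to 455329 in brainstem and 122385 to 195431 in hypothalamus, and all 7 were called lower in hypothalamus. Their part in the results below was not tested. The median difference of the ribosomal protein genes was -0.0034. It was 0.048 with the sum of all other genes set equal in every library, where all genes moved by nearly as much (median 0.046), and 0.088 without the liver-rich libraries.

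Rps18, a protein of the small subunit head, was higher in hypothalamus. Its normalized counts were 40.6 to 81.5 in brainstem (median 56.2) and 60.4 to 93.2 in hypothalamus (median 77.8), and the ranges overlapped. The hypothalamus mean was above the brainstem mean in each of the 4 pairs of groups, with a log2 difference of 0.42 ± 0.087 (SE; limma adjusted p = 0.000156). Rpl15, a core large subunit protein, was also higher, with 196 to 311 in brainstem (median 281) and 277 to 388 in hypothalamus (median 329). Its log2 difference was 0.26 ± 0.061 (SE; limma adjusted p = 0.000598), and again all 4 pairs of groups had the same direction. Both were called under all 44 alternatives run.

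Rps24, which takes part in pre-rRNA processing, was lower in hypothalamus, with 176 to 615 in brainstem (median 298) and 106 to 380.2 in hypothalamus (median 232). The log2 difference was -0.43 ± 0.15 (SE; limma adjusted p = 0.0137), and without the liver-rich libraries it was -0.26 with an adjusted p of 0.105. The 615 was that of brainstem ADREX ozone 81, and without it the difference was -0.35 (limma adjusted p = 0.0241). No member's 16 hypothalamus values lay wholly apart from its 16 brainstem values, where 8.95% of all genes did. Rpl39 was next, at 0.21 ± 0.098 (SE; limma adjusted p = 0.0703). The largest differences that did not pass were those of Rps29, Rpl37a, Rpl37 and Rps2 (0.56 to 0.32) and of Rpl38, Rpl26, Rps16 and Rps12, up to -0.20. That of Rps29 rests on its single library with reads, that of Rpl37a was -0.15 without its library at 0, and that of Rps16 was -0.13 without brainstem ADREX ozone 81.

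**Figure D5:**
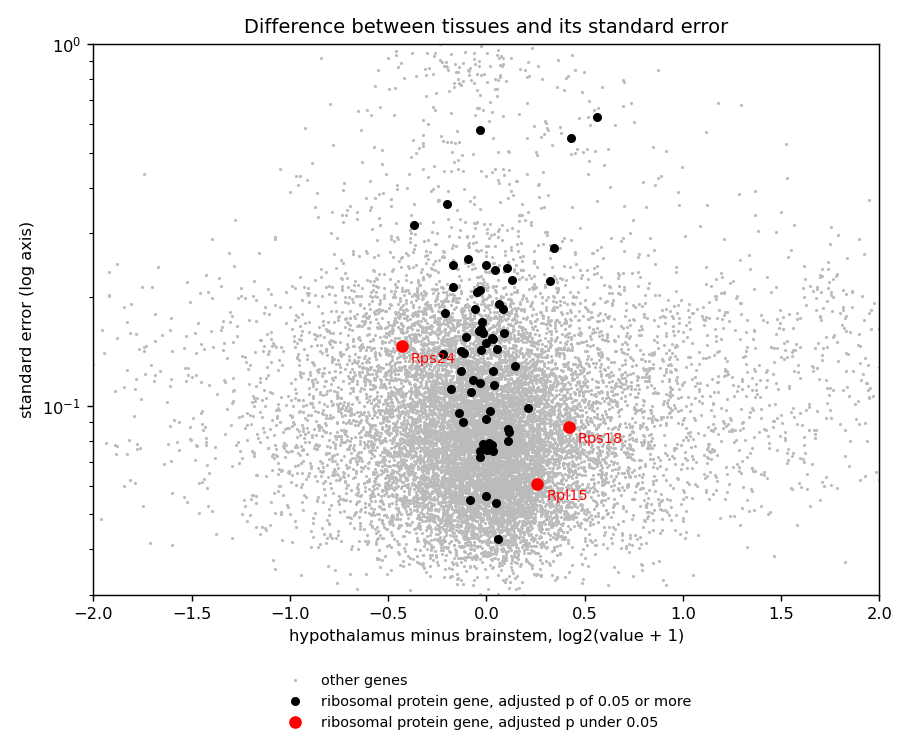
Difference between hypothalamus and brainstem on log2(value + 1) against its standard error on a log axis, for the ribosomal protein genes (black, or red where the adjusted p is under 0.05) and other genes (grey). The ribosomal protein genes form a narrow column around 0 that reaches up to large standard errors; 257 other genes fall outside the axes.

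Other lists of the protein synthesis machinery give the setting. Of the 24 translation factors and pyrimidine-start mRNAs and the 42 ribosome biogenesis genes tested, limma called 0 in each of the 10 comparisons within a tissue. These counts keep brainstem ADREX ozone 81, which had the highest brainstem sum of both lists. Between tissues, 3 translation factors were higher and 4 lower in hypothalamus, among them the poly(A)-binding protein gene Pabpc1 at -0.32 ± 0.052 and Tpt1 at -0.26 ± 0.074 (SE; limma adjusted p = 7.0e-06 and 0.0035). Of the biogenesis genes 11 were higher, such as Nop58 (0.31 ± 0.044) and Tsr1 (0.30 ± 0.042), and 4 lower, such as Sbds (-0.41 ± 0.12). Of 72 respiratory chain genes 46 were lower and none higher in hypothalamus, and of 73 mitochondrial ribosomal protein genes 22 were lower and 2 higher. Fau and Gnb2l1, which encode ribosomal proteins under other symbols, were not called in any comparison. For Gnb2l1 this says little. It was at 0 in brainstem sham air 2, sham ozone 19 and ADREX air 66, and in hypothalamus sham air 2 and ADREX air 66. All other libraries had 683 to 1398.

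Among 26 genes that signal to or from mTORC1 and eIF2alpha, Sesn1 and Ddit4 changed. Both encode inhibitors that act upstream of mTORC1 and are known to be induced by glucocorticoid or stress. In sham hypothalamus ozone raised Sesn1 by 0.65 ± 0.090 and Ddit4 by 0.67 ± 0.16 on the log2 scale (SE; limma adjusted p = 0.0010 and 0.0473). Sesn1 had 611 ± 19 in sham air, 963 ± 112 in sham ozone, 625 ± 52 in ADREX air and 610 ± 45 in ADREX ozone there (SD, n = 4 each), and its interaction was -0.68 ± 0.13 (limma adjusted p = 0.0426). In ozone, ADREX libraries had less of both than sham libraries, Sesn1 by -0.62 ± 0.14 in brainstem and -0.65 ± 0.090 in hypothalamus, Ddit4 by -1.10 ± 0.23 and -0.86 ± 0.16 (SE; limma adjusted p = 0.0219, 0.00051, 0.0123 and 0.0070). The other 24 genes were not called within a tissue.

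Rat ribosomal protein genes have many processed copies, and these held many of the reads. The table names 29 rows as copies or pseudogenes of a ribosomal protein gene, of which 15 had a mean of 10 or more. RefSeq, on build GRCr8, names 958 copies of the 71 symbols, 757 of them pseudogenes, with a median of 14 and up to 36 for a symbol. How reads that fit several copies were assigned is not stated in the labels or notes, so values of single members are uncertain where copies are near-identical.

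The copy Rps2-ps6 had a mean of 1535, against 71.7 for Rps2, and Rps4x-ps9 had 1322, against 5.8 for Rps4x. Rpl31l4 (683 against 96.1), Rpl34-ps1 (547 against 170), Rpl6-ps1 (361 against 31.3), Rpl26-ps2 (309 against 131) and Rps10l1 (255 against 6.0) were likewise above the gene they copy. Rps27a-ps1 had a mean of 1539, and Rps27a itself had no row. Rpl38 (mean 34.7) had the same number of reads as Rpl38-ps3 in 31 libraries and as Rpl38-ps2 in 30 of 32. Across the 71 symbols the number of RefSeq copies had a Spearman rho of 0.0028 with the mean level, and across members one of 0.23 with the within-group SD, both given as descriptions.

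No copy was called in any comparison within a tissue, and Rps2-ps6 was called between tissues (limma adjusted p = 0.0476). Adding copies to the gene changed some spreads. For Rps4x with its copy the within-group SD on log2(value + 1) was 0.17, against 0.63 for Rps4x alone, with sums of 1326 ± 140 in brainstem and 1329 ± 147 in hypothalamus (SD, n = 16 each). For Rps2 with its copies it was 0.32 against 0.67, and for Rpl34 0.16 against 0.23. For Rps10 (0.44 against 1.03), Rpl26 (0.42 and 0.42), Rpl31 (0.50 against 0.38), Rpl6 (0.46 against 0.64) and Rps15 (0.62 against 0.78) the sums varied by 0.42 or more.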

How the data were processed

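RNA of 32 libraries was selected for mRNA and sequenced on an Illumina NextSeq 500, per the labels' protocols. The authors deposited a table of normalized counts per gene (unit signal: reads divided by a size factor). The submitters' processing notes name Partek, DESeq2 and the build rn6, with no roles; no aligner or annotation is stated there. Within each library all values were whole multiples of the smallest step (100% within 0.001), so reads were recovered. Genes with a mean of 10 or more were tested with limma (3.58.1, R 4.3.3) with a mean trend on log2(value + 1), 4 group means per tissue, Benjamini-Hochberg over all genes tested, called at an adjusted p under 0.05. Fold changes on this scale understate low genes. The contrast between tissues used all 32 libraries. edgeR (4.0.16) and DESeq2 (1.42.0) were run on recovered reads as alternatives. The limma, edgeR and DESeq2 steps were tested on simulated data. Members and lists were chosen with earlier results of these data known. Named genes are a panel by role, the highest and lowest means, called members, and otherwise the 5 largest differences each way; others, named for an unadjusted p, non-overlapping groups or a single odd library, were chosen after their values were seen. Promoter sequence is RefSeq's. Some genes are not reported here by name. No 2 libraries held identical values.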

Additional observations from a re-analysis of the deposited data

Results flagged for a closer look

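Values that stood far from the other 3 of their group were looked for in the summed share and in 18 members, over 152 groups of 4 libraries. The 18 members were picked for the text, some of them after their values were seen. The search found 9 such values, and chance flags about 1 in 20 groups, which is near 9 of 152. That rate does not apply to members picked after such a value was seen. In each of the 9, the gap to the nearest library took up most of the group's range, past Dixon's critical value. In hypothalamus sham ozone, library 18 had a member share of 0.238%, against 0.341 to 0.361% in the others, and an Rpl5 count of 1014, against 1935 to 1992. In hypothalamus ADREX ozone, library 84 had an Rpl5 count of 929.8, against 1781 to 1924, an Rpl37a count of 288, against 541 to 581, and an Rps29 count of 509, against 0. In brainstem sham air, library 3 had an Rpl12 count of 3.1, against 16.2 to 17.7, and library 1 an Rpl24 count of 639, against 511 to 527. In brainstem ADREX ozone, library 82 had an Rpl3 count of 2699, against 2093 to 2158, and library 81 an Rps24 count of 615, against 236 to 289.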

How the results depend on the processing

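Counts of called members and their medians were recomputed with other pseudocounts, filters, scalings, tools, sample weights and sets of libraries. For ADREX against sham in ozone in hypothalamus the count of 0 became 3 with sample weights, 4 without the liver-rich libraries and 0 to 1 on leaving out each library in turn. Between tissues the count of 3 became 5 with the sum of the other genes set equal, and was 2 without the liver-rich libraries; it was 3 to 4 on leaving out each library in turn. The summed share was 0.197% in brainstem and 0.204% in hypothalamus without the 5 members of highest mean. The cause was not tested. Over all genes, DESeq2 called 237 against limma's 141 for ozone in sham brainstem, 412 against 230 in sham hypothalamus, 16 against 0 and 14 against 2 for ADREX in air, and 74 against 29 and 53 against 20 for the interactions (brainstem, then hypothalamus); sample weights gave 496, 886, 7, 4, 94 and 90. For ADREX against sham in ozone, sample weights gave 760 against 352 in brainstem and 1011 against 325 in hypothalamus, the compared groups alone 148 and 161, and leaving out the liver-rich libraries 591 in hypothalamus; the latter also gave 32 for the hypothalamus interaction. Other settings with all libraries moved counts of 2 or fewer to between 0 and 3. Leaving out 1 library at a time gave 73 (without brainstem sham ozone 20) to 272 (without brainstem ADREX ozone 81) genes for ozone in sham brainstem and 115 to 334 in sham hypothalamus, 197 to 444 and 198 to 584 for ADREX against sham in ozone, 0 to 7 in air in either tissue, and 18 to 47 and 15 to 37 for the interactions. No called value changed sign. The other 546 values for counts, medians and shares and 339 for single genes were labelled as kept. For single genes this meant the same side of the threshold, and for the tissue count 2 or 4 also passed beside 3. A median was labelled as kept if it moved by less than 0.248, the pooled within-group SD of the library medians. That limit exceeded every members' median within a tissue (0.204 at most in size), so this label could not show their loss. Medians changed sign on leaving out 1 library as given above. Library numbers recur in both tissues, with the same operation and exposure. Same-numbered deviations correlated from -0.53 to 0.61 between the tissues, above 0.1 for 7 of 16 numbers. These correlations cannot decide whether equal numbers mark one rat, since each library's own properties, such as liver transcripts, enter the deviations. The main contrast between tissues took the libraries as unpaired. With the replicate block, 4 members were called between tissues. The depth of 6.44 to 12.4 M reads limits the lowest members, and sums over copies leaving out libraries outside a comparison and single-gene values without brainstem ADREX ozone 81 or 84 were added after seeing the data.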
